A study of Homo sapiens with 6 samples.

Results

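Transcripts of 10 genes of the Notch pathway were examined in HCC1806-HM3 cells, a liver-metastatic derivative of the human triple-negative breast cancer line HCC1806. The set was defined by gene symbol and comprised 3 receptors (NOTCH1, NOTCH2 and NOTCH3), 2 ligands (JAG1 and JAG2), the receptor-modifying enzyme LFNG and 4 target genes (HES1, HES4, HEY1 and NRARP). All 10 were among the 17860 genes of the deposited table and had a value in every sample. In 3 samples the cells carried a control shRNA (shNC) and in 3 they carried one that targets MSLN (shMSLN), introduced by lentivirus and kept as stable lines under G418. MSLN encodes mesothelin, a surface glycoprotein, and the study asked what its loss does to these cells. The labels do not say which shRNA sequence was used or whether the 3 samples of a group were separate cultures, so the tests below measure the spread between these samples, which may be technical. Both groups share the metastatic selection, the vector and the drug selection. Each group may be 1 derived line, which the labels do not say.

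Notch receptors are single-pass membrane proteins that bind ligands of the Jagged and Delta families on a neighbouring cell. Binding exposes the receptor to cleavage by ADAM proteases and then by γ-secretase, and the freed intracellular domain enters the nucleus. There it joins the DNA-binding protein RBPJ and a Mastermind coactivator and switches on target genes, many of which encode HES and HEY repressors. LFNG adds sugars to the receptor in the Golgi and alters which ligands it answers to. In breast epithelium the pathway takes part in the choice between basal and luminal fates, and in breast cancer both receptors and Jagged ligands have been studied for their part in tumour growth.

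HES1 and HES4 encode closely related repressors, and their promoters share an arrangement of RBPJ-type motifs, so the 250 bases before the RefSeq start site of each gene are shown here. Capitals mark the letters GTGNGAA (read on the gene's strand) and the same motif on the opposite strand (TTCNCAC). Both sequences are from RefSeq on GRCh38.p14 and run 5′ to 3′ on the strand of the gene. The HES1 stretch is chr3:194135898-194136147 on the plus strand and the HES4 stretch is chr1:1000098-1000347 on the minus strand.
HES1: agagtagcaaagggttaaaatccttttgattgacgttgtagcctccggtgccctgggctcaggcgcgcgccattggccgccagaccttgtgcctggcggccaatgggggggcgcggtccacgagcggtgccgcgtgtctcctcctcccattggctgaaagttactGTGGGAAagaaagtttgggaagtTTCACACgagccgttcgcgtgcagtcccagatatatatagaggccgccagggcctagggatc
HES4: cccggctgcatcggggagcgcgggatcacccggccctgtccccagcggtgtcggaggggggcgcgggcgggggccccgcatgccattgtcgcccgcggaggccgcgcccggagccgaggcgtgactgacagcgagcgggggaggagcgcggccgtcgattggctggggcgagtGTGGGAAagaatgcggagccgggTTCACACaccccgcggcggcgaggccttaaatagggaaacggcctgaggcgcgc

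In HES1 the first motif began at position -85 from the start site and the second at -62, and in HES4 they began at -77 and -54. In both genes the motifs faced each other with 16 bases between them. The single motif, on either strand, was found in 13.8% of 35116 RefSeq promoter windows, each of 250 bases before and 50 after a start site, whereas the facing pair at this spacing was found in 3 windows (0.0085%), those of HES1, HES4 and ITIH4. The spacing was taken from HES1 and HES4 themselves, so this share is a description. Of the members, 9 had a RefSeq promoter window, and the 7 others than HES1 and HES4 held no match of the motif in it. HEY1 had no entry. A match of letters is not a measured binding site.

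Before the members are described, the knockdown and the samples were checked. MSLN (GRCh38, chromosome 16, 760762 to 768865, plus strand) was at 231, 226 and 227 CPM (counts scaled to library size with TMM factors, which set the libraries to a common scale) in the shNC samples and at 37.1, 36.2 and 35.4 CPM in the shMSLN samples, or 15.9% of the shNC level (log2 fold change -2.65, edgeR adjusted p = 3.968e-15). Each sample had 17507837 to 18512135 estimated counts in all. The cells, described as triple-negative breast cancer in the paper, were checked against 8 genes of basal and squamous epithelium. All 8 were above 1 TPM (a unit of transcript share that is scaled for gene length) in every sample. Their sum was between 3198 and 3477 TPM in shNC and between 2816 and 2861 TPM in shMSLN. Most of it was KRT5, which went from 2228 to 1759 TPM. KRT17, CDH1 and DSG3 were higher in shMSLN, KRT5, KRT6A and TP63 were lower, and KRT14 and EPCAM did not pass the test. Of 2 hormone receptor genes, ESR1 (6.56 and 9.39 TPM) was higher in shMSLN and PGR was at most 0.01 TPM where it had a value. The sum of 5 fibroblast genes was between 60.4 and 63.9 TPM in shNC and between 118 and 121 TPM in shMSLN. Most of that was LUM, which went from 49.5 to 105 TPM. Of the 5 genes, LUM and DCN (0.343 and 0.677 TPM) were higher in shMSLN, COL1A1 (11.5 and 11.8 TPM) and PDGFRB (1.21 and 1.08 TPM) did not pass the test, and COL1A2 (at most 0.05 TPM in shNC and 0.19 TPM in shMSLN) had too few counts for one. Of 4 endothelial genes, VWF (1.24 and 1.69 TPM) was higher in shMSLN, and the other 3 were under 1 TPM in every sample. The sum of 4 blood cell genes was between 35.6 and 40.1 TPM in shNC and between 36.3 and 38.0 TPM in shMSLN. Most of that was CD68 (31.6 and 29.6 TPM), and the 3 tested genes did not pass. The 3 listed hepatocyte genes summed to at most 0.15 TPM. The part of these markers in the results was not tested. In bulk RNA fewer cells with a transcript and less of it per cell cannot be told apart. Estimated counts were whole numbers for many genes in shMSLN replicates 2 and 3 (9 of the 10 members in each) and for few in the other 4 samples (at most 2 members), so values from shMSLN replicate 1 alone are given where they alter a call.

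Of the 10 members, 3 were higher in shMSLN (JAG2, HES4 and HEY1), 2 were lower (NOTCH1 and HES1) and 5 did not pass an adjusted p of 0.05 in edgeR's quasi-likelihood test. Across all 14552 tested genes 34.6% passed, 16.6% as higher and 18.0% as lower, and among the 8485 tested genes in the members' range of abundance 37.8% passed. The CPM of the groups did not overlap for 5 members, against 46.2% of all tested genes. The median log2 fold change of the members was -0.0063 and the median of its size was 0.16, beside 0.0019 and 0.14 over all tested genes. The pathway's genes thus had no common direction, and genes that passed stood beside genes that did not among the receptors, the ligands and the targets. HEY1 was the member with the largest change.

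**Figure D1:**
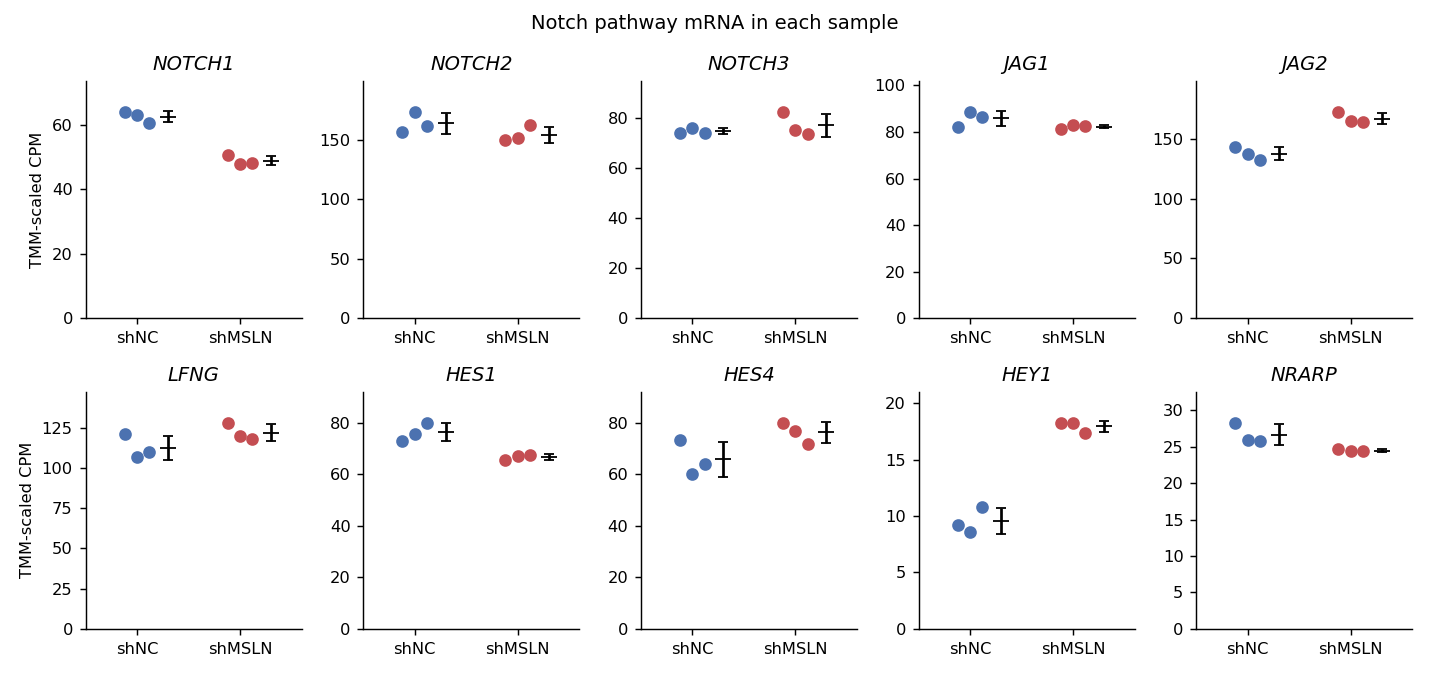
TMM-scaled CPM (vertical axes, each starting at 0) of the 10 members in 3 shNC samples (blue) and 3 shMSLN samples (red), replicates 1 to 3 from left to right, with the mean and SD in black. HEY1 sits at 8.59 to 10.8 CPM in shNC and 17.4 to 18.3 CPM in shMSLN, and NOTCH1, HES1 and NRARP are the genes whose red points all lie below the blue ones.

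Among the receptors, NOTCH1 was lower in shMSLN and neither NOTCH2 nor NOTCH3 passed the test. NOTCH1 (chromosome 9, 136494433 to 136545786, minus strand; positions here and below are from GENCODE 29 on GRCh38) was at 63.9, 63.1 and 60.4 CPM in shNC and at 50.6, 47.8 and 48.2 CPM in shMSLN. Every shMSLN sample lay below every shNC sample. The means were 62.5 ± 1.82 and 48.9 ± 1.5 CPM (SD, n = 3 each). The log2 fold change was -0.35 (SE 0.048, 95% interval -0.46 to -0.25, edgeR adjusted p = 4.983e-05), or 0.782 of the shNC level. It kept its call under each of the 16 alternative settings, with log2 fold changes between -0.38 and -0.30.

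NOTCH2 (chromosome 1, 119911553 to 120069626, minus strand) was the receptor with the most counts, at 157, 173 and 161 CPM in shNC and 150, 152 and 162 CPM in shMSLN. The groups overlapped, and the log2 fold change of -0.084 had a 95% interval from -0.18 to 0.014 (edgeR adjusted p = 0.176). Without shNC replicate 1, the lowest of its group, the log2 fold change was -0.12 and passed (edgeR adjusted p = 0.0339). NOTCH3 (chromosome 19, 15159038 to 15200981, minus strand) was at 73.9, 75.9 and 74.1 CPM in shNC and 82.4, 75.2 and 73.6 CPM in shMSLN. Here shMSLN replicate 1 stood above the shNC samples, replicate 2 lay among them and replicate 3 lay just below them, so that the log2 fold change of 0.047 (95% interval -0.058 to 0.15, edgeR adjusted p = 0.494) became -0.0048 without that sample.

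The fall of NOTCH1 against the other receptors was also read within each sample, where no scaling of libraries enters. The log2 ratio of NOTCH1 to NOTCH3 was between -0.29 and -0.21 in shNC and between -0.70 and -0.61 in shMSLN, a difference of -0.40. For NOTCH1 against NOTCH2 the ratio moved from a mean of -1.39 to -1.66, a difference of -0.27. Neither ratio overlapped between groups, and the exact two-sided permutation test gave p = 0.1 for each, the smallest p that 3 samples against 3 allow (adjusted p = 0.1 over 5 ratios, whose pairs were chosen after the values were seen).

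NOTCH2 has partial copies in the human genome, the NOTCH2NL genes, which hold its first exons and share nearly all of their sequence with it, so counts can be divided between them in an uncertain way. The table held 3 of them. NOTCH2NLA was at 7.88, 5.54 and 7.29 CPM in shNC and 11.6, 17.1 and 16.3 CPM in shMSLN, a log2 fold change of 1.12 (SE 0.15, edgeR adjusted p = 4.885e-05). NOTCH2NLB went from 28.6 ± 0.226 to 37.5 ± 5.44 CPM (log2 fold change 0.39, edgeR adjusted p = 0.00214), and NOTCH2NLC was at 10.1 ± 2.57 and 10.3 ± 0.196 CPM and did not pass (edgeR adjusted p = 0.902). All 3 copies are uncertain as single genes for that reason.

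Summed with its copies, NOTCH2 came to 203, 221 and 205 CPM in shNC and 215, 215 and 221 CPM in shMSLN. These sums overlapped (means 209 ± 9.78 and 217 ± 3.46 CPM, exact two-sided permutation p = 0.3). The copies' part of the sum was 21.8% ± 0.892 in shNC and 28.9% ± 1.96 in shMSLN (SD, n = 3 each, exact two-sided permutation p = 0.1, the smallest possible) without overlap. The sum thus overlapped between groups, which with 3 samples each does not show that it was equal. Its division between NOTCH2 and the copies set the groups apart without overlap.

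**Figure D2:**
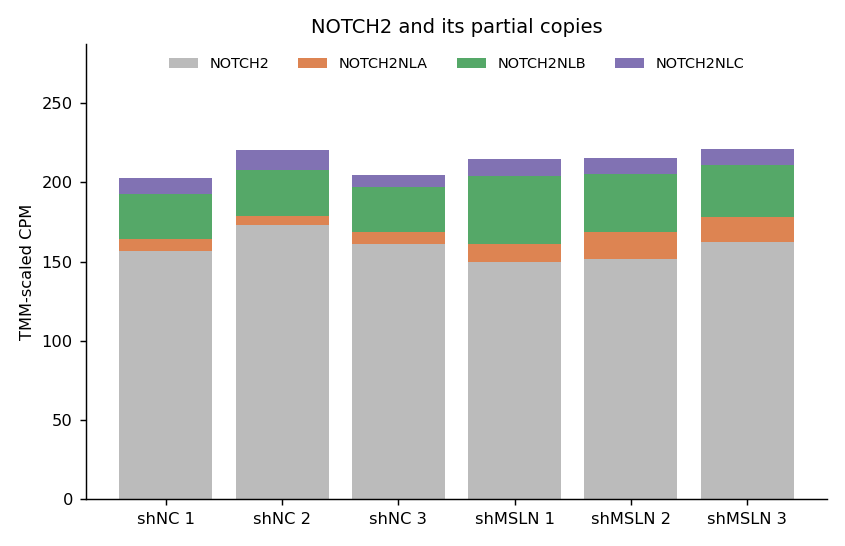
Stacked TMM-scaled CPM (vertical axis) of NOTCH2 and its 3 listed partial copies in each sample (horizontal axis). The height of the bars lies between 203 and 221 CPM in both groups, and the coloured part made of the copies is taller in the 3 shMSLN samples.

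Of the ligands, JAG2 was higher in shMSLN and JAG1 did not pass the test. JAG2 (chromosome 14, 105140981 to 105168824, minus strand) was at 143, 137 and 133 CPM in shNC and 173, 165 and 164 CPM in shMSLN. All shMSLN samples lay above all shNC samples, with means of 138 ± 5.33 and 167 ± 4.82 CPM (SD, n = 3 each). The log2 fold change was 0.28 (SE 0.041, 95% interval 0.19 to 0.37, edgeR adjusted p = 0.0001185), or 1.21-fold, and stayed between 0.25 and 0.33 over the 16 alternatives, passing in each. A same-strand gene model, AL512356.1, overlaps 7.33% of the JAG2 exon bases and is not listed in the table.

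JAG1 (chromosome 20, 10637684 to 10673999, minus strand), the other Jagged ligand, was at 82.3, 88.6 and 86.5 CPM in shNC and 81.4, 82.8 and 82.7 CPM in shMSLN. The groups overlapped and the log2 fold change was -0.060 (95% interval -0.15 to 0.034, edgeR adjusted p = 0.315). An antisense gene model, AL050403.2, overlaps 0.85% of the JAG1 exon bases and is not listed in the table. Within each sample the log2 ratio of JAG2 to JAG1 was between 0.62 and 0.80 in shNC and between 0.99 and 1.08 in shMSLN. The ratio did not overlap between groups and differed by 0.34 (exact two-sided permutation p = 0.1, the smallest possible). The pair was chosen after the values were seen, so this is a description.

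LFNG (chromosome 7, 2512529 to 2529177, plus strand) encodes a glycosyltransferase that extends O-fucose on the receptor. It was at 121, 107 and 110 CPM in shNC and 128, 120 and 118 CPM in shMSLN, and shNC replicate 1 lay above shMSLN replicates 2 and 3. In the authors' TPM, LFNG did not overlap between groups (109.6 to 112.2 in shNC and 116.28 to 124.01 in shMSLN). Its log2 fold change of 0.12 had a 95% interval for the single gene from 0.0083 to 0.23 and did not pass after adjustment (edgeR adjusted p = 0.0896). It passed without shNC replicate 1 (0.17, edgeR adjusted p = 0.00309), with upper-quartile scaling (0.15, edgeR adjusted p = 0.0381) and with the replicate number as a block (0.12, edgeR adjusted p = 0.0181).

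The 4 target genes went in different directions. HEY1, a basic helix-loop-helix repressor of the Hairy family, had the lowest CPM of the members, a scale that is not set per length, at 9.25, 8.59 and 10.8 CPM in shNC and 18.3, 18.2 and 17.4 CPM in shMSLN (155 to 194 counts against 308 to 340). The shMSLN samples all stood well above the shNC samples. HEY1 (chromosome 8, 79764010 to 79767863, minus strand) had means of 9.55 ± 1.13 and 18.0 ± 0.496 CPM (SD, n = 3 each), and the log2 fold change was 0.91 (SE 0.090, 95% interval 0.72 to 1.1, edgeR adjusted p = 2.399e-06), or 1.88-fold. Among the 2411 genes that were higher in shMSLN, HEY1 ranked 235 by size of the change. Its log2 fold change was between 0.84 and 1.01 over the 16 alternatives and passed in each.

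HES1 (chromosome 3, 194136145 to 194138732, plus strand), the target gene used most often as a readout of the pathway, was at 73.1, 75.7 and 80.0 CPM in shNC and 65.5, 67.2 and 67.5 CPM in shMSLN. All shMSLN samples lay below all shNC samples. The means of 76.3 ± 3.52 and 66.8 ± 1.09 CPM (SD, n = 3 each) gave a log2 fold change of -0.19 (SE 0.047, 95% interval -0.29 to -0.091, edgeR adjusted p = 0.00561), or 0.876 of the shNC level. With shMSLN replicate 1 as the only shMSLN sample the value was -0.22 and did not pass (edgeR adjusted p = 0.105).

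HES4 (chromosome 1, 998962 to 1000172, minus strand), whose promoter holds the same facing pair of motifs as HES1, was at 73.1, 59.9 and 64.0 CPM in shNC and 79.9, 76.8 and 71.7 CPM in shMSLN. In CPM the groups overlapped, since shMSLN replicate 3 lay below shNC replicate 1. In the authors' TPM they did not (140.94 to 168.36 in shNC and 172.82 to 188.53 in shMSLN). The log2 fold change was 0.21 (SE 0.065, 95% interval 0.074 to 0.35, edgeR adjusted p = 0.0198), or 1.16-fold. This call rests on single libraries: the adjusted p from edgeR was 0.0663 without shNC replicate 2, 0.0845 without shNC replicate 3, 0.0965 without shMSLN replicate 1, 0.0665 without shMSLN replicate 2 and 0.077 with shMSLN replicate 1 alone. The direction was the same in all of these.

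NRARP encodes an ankyrin repeat protein that binds the Notch nuclear complex and limits it. It (chromosome 9, 137300482 to 137302251, minus strand) was at 28.3, 25.9 and 25.8 CPM in shNC and 24.7, 24.3 and 24.3 CPM in shMSLN. The shMSLN samples lay just below the shNC samples without overlap, but the log2 fold change of -0.13 (95% interval -0.26 to 0.0074) did not pass (edgeR adjusted p = 0.134).

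The 3 HES and HEY genes of the set were compared within each sample. The log2 ratio of HEY1 to HES1 was between -3.14 and -2.89 in shNC and between -1.96 and -1.84 in shMSLN, a difference of 1.11. For HES4 against HES1 the ratio was between -0.34 and 0.0011 in shNC and between 0.085 and 0.29 in shMSLN, a difference of 0.41. Neither ratio overlapped between groups (exact two-sided permutation p = 0.1 each, the smallest possible). Both pairs were chosen after the values were seen, so this is a description. HES4 against HES1 was thus apart between groups as a ratio, although HES4 itself overlapped between them in CPM, but not in the authors' TPM.

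**Figure D3:**
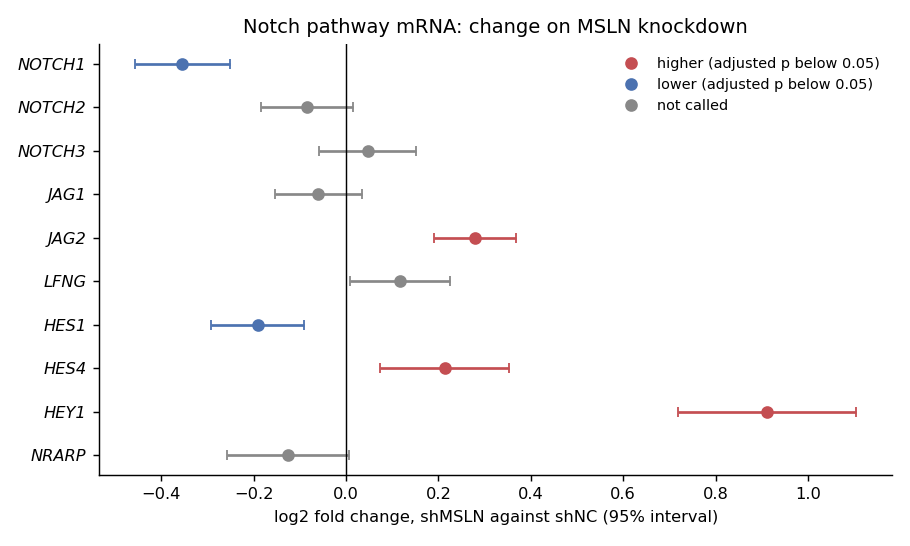
Log2 fold change of each member in shMSLN against shNC (horizontal axis) with its 95% interval from edgeR, red for higher, blue for lower and grey for not called. HEY1 stands apart at 0.91, NOTCH1 and HES1 lie below 0, and the intervals of NOTCH2, NOTCH3, JAG1 and NRARP cross 0.

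Levels of different genes were compared on the authors' TPM scale, which accounts for gene length. In shNC the order was HES4 (153 ± 14.1 TPM), LFNG (111 ± 1.32), HES1 (108 ± 5.47), JAG2 (52.0 ± 1.86), JAG1 (31.3 ± 1.79), NOTCH2 (31.0 ± 2.33), NRARP (22.1 ± 0.939), NOTCH3 (20.2 ± 0.817), NOTCH1 (15.2 ± 0.627) and HEY1 (9.56 ± 1.01), each as mean ± SD over 3 samples. LFNG and HES1 overlapped with each other, as did JAG1 and NOTCH2, while the other neighbours in this order did not overlap. The most abundant transcripts per length were thus those of LFNG and the small HES genes, and JAG2 was above JAG1.

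In shMSLN the first 6 places were held by the same genes in the same order, from HES4 at 182 ± 8.43 TPM to NOTCH2 at 29.9 ± 1.44 TPM (SD, n = 3). NOTCH3 at 21.3 ± 1.02 TPM and NRARP at 20.8 ± 0.0153 TPM overlapped with each other and came next. HEY1 reached 18.5 ± 0.431 TPM and NOTCH1 was last at 12.04 ± 0.183 TPM, so HEY1 and NOTCH1 had changed places. LFNG and HES1, which overlapped in shNC, were apart in shMSLN. The order in FPKM, the other length-scaled unit of the table, was the same for all 10 genes in both groups.

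**Figure D4:**
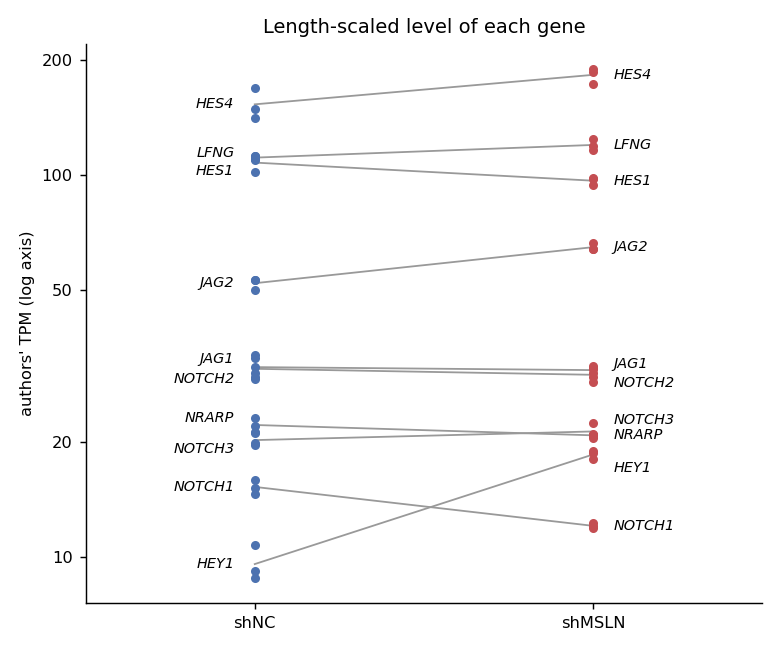
The authors' TPM values (vertical log axis) of the 10 members in shNC (blue) and shMSLN (red), one point per sample, with lines joining the group means. HEY1 rises from 9.56 to 18.5 TPM and crosses NOTCH1, which falls from 15.2 to 12.04 TPM, while the 6 most abundant genes keep their order.

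The rest of the pathway was read from a list of 62 other genes, of which 60 were in the table and 54 had enough counts for a test. Of these, 8 were higher in shMSLN, 11 were lower and 35 did not pass, so 35.2% passed beside the 34.6% of all tested genes. Their median log2 fold change was 0.012. With upper-quartile scaling, which moved the median of all genes from 0.0019 to 0.031, 15 were higher and 9 lower, so the balance of directions depends on the scaling. The ligand DLL4, the receptor NOTCH4 and the target genes HES5 and HEY2 were among those with too few counts for a test.

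Among other receptors and ligands, DLK2, a non-canonical ligand-like protein, was higher in shMSLN, from 29.1 ± 0.522 to 39.2 ± 1.44 CPM (SD, n = 3 each, log2 fold change 0.43, edgeR adjusted p = 3.016e-05). The Delta ligand DLL1 was at 38.2 ± 2.48 and 35.7 ± 1.17 CPM and did not pass (edgeR adjusted p = 0.22). Of 5 tested glycosylation genes, LFNG's relatives MFNG and RFNG among them, 0 passed in edgeR, DESeq2 or limma-voom, and 0 had an unadjusted edgeR p below 0.05.

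Of 9 genes for receptor cleavage, 2 were higher and 2 lower. The γ-secretase subunit APH1B was at 9.74, 11.6 and 11.7 CPM in shNC and 19.5, 16.7 and 18.4 CPM in shMSLN, without overlap (log2 fold change 0.72, SE 0.092, edgeR adjusted p = 2.959e-05). NCSTN, which encodes the γ-secretase subunit nicastrin, was at 78.0, 76.2 and 74.6 CPM in shNC and 98.3, 102 and 100 CPM in shMSLN, also without overlap (log2 fold change 0.39, SE 0.042, edgeR adjusted p = 5.072e-06). The protease FURIN, which cuts the receptor on its way to the surface, was lower, from 61.9 ± 0.721 to 52.2 ± 1.71 CPM (edgeR adjusted p = 0.0009468). ADAM10, the sheddase, was at 341 ± 10.8 and 343 ± 9.51 CPM and did not pass (edgeR adjusted p = 0.886).

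In receptor turnover, 4 of 9 genes were lower and 1 was higher. DTX2 and DTX4 encode ubiquitin ligases of the Deltex family. DTX2 went from 65.6 ± 1.02 to 49.6 ± 2.92 CPM (log2 fold change -0.40, edgeR adjusted p = 2.787e-05), and DTX4 from 143 ± 10.2 to 114 ± 3.87 CPM (log2 fold change -0.33, edgeR adjusted p = 0.0001583). DTX3L and the ubiquitin ligase ITCH were also lower, and NEDD4 was higher. Of 3 genes for ligand endocytosis, the ubiquitin ligase MIB1 was higher, and the other 2 did not pass.

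In the nucleus, 6 of 11 repressor genes passed, 4 of them lower and 2 higher. TLE3, a Groucho-type corepressor that HES proteins recruit, was at 96.8, 100 and 97.8 CPM in shNC and 70.1, 69.0 and 67.6 CPM in shMSLN (log2 fold change -0.51, SE 0.042, edgeR adjusted p = 3.44e-07). CTBP1, another corepressor, went from 59.2 ± 1.20 to 42.7 ± 1.14 CPM (log2 fold change -0.47, edgeR adjusted p = 3.203e-06). NCOR1, a corepressor that can bind RBPJ complexes, went from 239 ± 2.65 to 205 ± 4.64 CPM (log2 fold change -0.22, edgeR adjusted p = 0.000257), and CTBP2 was lower as well. TLE2 and HDAC1 were higher, so the corepressors did not share a direction.

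Of 9 genes for the nuclear complex, MAML3 was higher and MAML1 lower. RBPJ itself was at 79.1 ± 5.28 CPM in shNC and 86.6 ± 2.91 CPM in shMSLN (log2 fold change 0.13, edgeR adjusted p = 0.0665), which did not pass. Of the other HES and HEY genes 4 were tested, and 0 passed in edgeR, DESeq2 or limma-voom. HES6, at 2.05 ± 0.477 and 1.40 ± 0.0614 CPM, was the 1 gene of these with an unadjusted edgeR p below 0.05 (edgeR adjusted p = 0.0881). The 8 genes of this list given with a fold change that passed kept their call under all 16 alternatives.

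**Figure D5:**
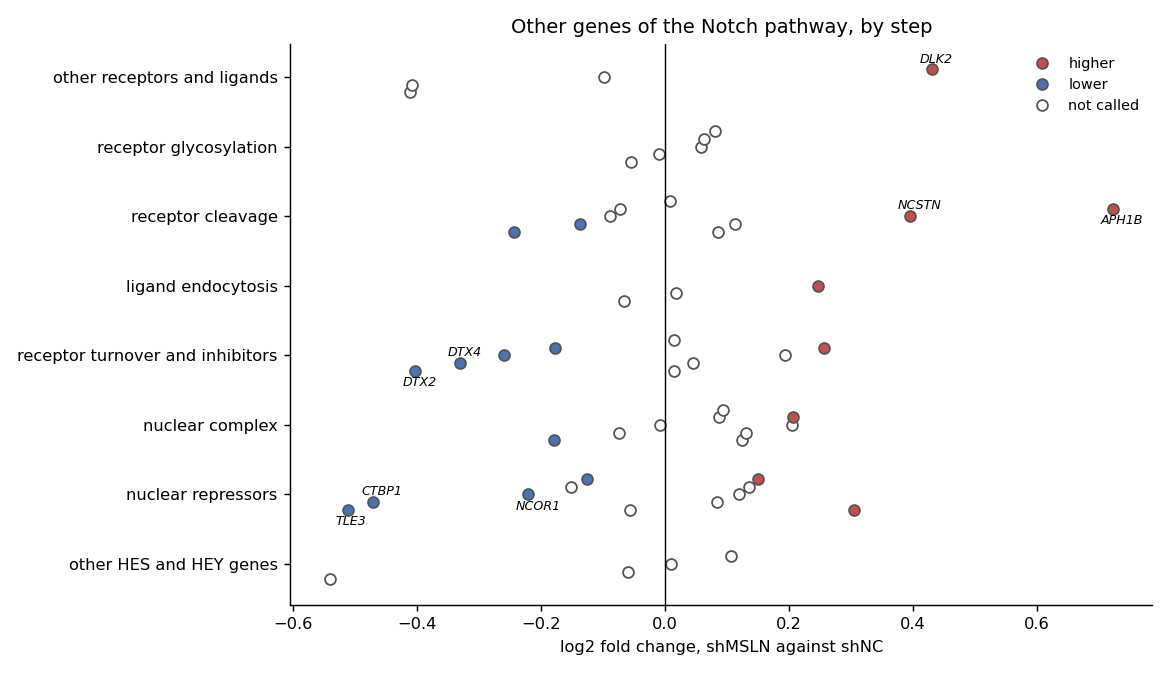
Log2 fold change (horizontal axis) in shMSLN against shNC of the 54 other tested pathway genes, grouped by step (vertical axis), red for higher, blue for lower and open for not called, with the 8 of smallest adjusted p named. TLE3 and CTBP1 lie farthest to the left among called genes and APH1B farthest to the right.

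Genes with a pattern like that of HEY1, the member with the smallest adjusted p, were looked for among 10501 tested genes with a mean of at least 10 CPM. Over the 6 samples the log2 CPM of NDRG1, HSD17B8 and GNAI1 had the highest Pearson correlation with HEY1, at 0.999, 0.997 and 0.996. NDRG1, a gene known for its response to stress and low oxygen, was at mean levels of 523 CPM in shNC and 633 CPM in shMSLN. HSD17B8, a steroid dehydrogenase gene, was at 19.4 and 24.7 CPM, and GNAI1, which encodes an inhibitory G protein subunit, at 41.9 and 60.4 CPM. With 2 groups of 3 samples that differ in HEY1, these correlations hold the group difference and are a description.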

How the data were processed

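RNA-Seq was read from 6 samples, 3 shNC and 3 shMSLN, grouped by their titles. The authors deposited 1 table with estimated counts, FPKM and TPM for each gene and sample. The submitters' processing notes name the build GRCh38.p13, and the aligner, quantifier and annotation are not given in the sources used here. The deposited estimated counts are not scaled for depth, and the authors' TPM and FPKM values are scaled for depth and gene length. The shMSLN columns hold missing marks for 1103, 695 and 695 genes, and each shNC column holds 0. The sources used here do not say whether the columns of both groups were made in the same way. Such a difference could not be told apart from the knockdown. The 16573 genes with a value in every sample were kept, and counts were rounded. The groups were compared by the quasi-likelihood test of edgeR 4.0.16 (R 4.3.3) without a covariate, after filterByExpr and TMM scaling, with Benjamini-Hochberg adjustment over 14552 genes at a threshold of 0.05. Alternatives used limma-voom (limma 3.58.1), DESeq2 1.42.0, other scalings and filters, and left out single samples. Sums and ratios over few genes were compared by exact permutation tests. No length-scaled value was tested. The steps were tested on simulated data with changes larger than those of HES1 or HES4, so that test does not bear on calls of their size.

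The members and the gene lists were chosen with earlier results of these data known. Genes named with values were the members, MSLN, the NOTCH2NL copies, up to 8 passing genes of the other pathway list by adjusted p, and the 3 genes most like the member with the smallest adjusted p. DLL1, ADAM10, RBPJ, the marker genes named and the other pathway genes named were chosen after their values were seen. The labels do not say whether replicate numbers pair the samples, and the main test used no pairing. The correlation of deviations from the group means between samples of the same number was 0.165, 0.0764 and 0.0718, and 1 of 3 was over 0.1. Between samples of different numbers it was lower, from -0.105 to 0.0355.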

Additional observations from a re-analysis of the deposited data

How the results depend on the processing

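The count of members that passed was 5, between 4 and 7 when single samples were left out, and 6 with upper-quartile scaling. With shMSLN replicate 1 as the only shMSLN sample, an alternative chosen after seeing the data, 3 members passed and 1 of them was lower, 9 other pathway genes passed in place of 19, and 1797 of all genes passed in place of 5032; this fit has fewer samples. With the replicate number as a block (replicate block), 6 members, 22 other pathway genes and 5789 genes passed; the members' calls gained LFNG, and each sample correlated best with the sample of its own number, a hint from the data and not from the design. Without shMSLN replicate 1, NOTCH3 changed sign to -0.0048, and its values lay between that and 0.080 when single samples were left out. It passed in none of these, and the cause was not tested. HEY1, NOTCH1, JAG2 and the 8 named pathway genes kept their call under all 16 alternatives, HES1 under 15 and HES4 under 11. MSLN stayed between -2.67 and -2.62 on the log2 scale. With 3 samples a group, sums and ratios cannot go below an exact permutation p of 0.1, and NOTCH2NL counts are limited by near-identical sequence.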
